A study of Mus musculus with 6 samples.

Results

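Angiomotins and Ajuba LIM proteins are 6 scaffold genes of the Hippo pathway, Amot, Amotl1 and Amotl2 in the first family and Ajuba, Limd1 and Wtip in the second. They were chosen by gene symbol from a table of 29510 gene symbols and 85882 Ensembl transcripts, in which they have 32 transcripts. The table describes mouse primary chondrocytes, the cells that build cartilage, cultured without being made to differentiate. Of its 6 RNA sequencing libraries, 3 came from cells with floxed Nf2 alleles and the Prx1-Cre transgene (Nf2f/f;Prx1-CRE, cKO 1 to 3) and 3 from cells with the floxed alleles alone (Nf2f/f, control 1 to 3). Prx1-Cre is a recombinase driven in limb bud mesenchyme, so cells outside that lineage in a culture would keep Nf2. The comparison addresses what loss of Nf2 changes in limb cartilage cells, and the study's title names Hedgehog signalling through the primary cilium. The labels do not say whether replicates are separate animals or cultures or give the animals' age, so p-values measure only how these samples vary, which may be technical.

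Hippo signalling is a kinase chain that ends in LATS kinases, which phosphorylate the coactivators YAP and TAZ and keep them out of the nucleus. Merlin, the product of Nf2, works upstream of these kinases at the membrane. Angiomotins bind merlin, junction proteins and actin, and hold YAP in the cytoplasm directly, while Ajuba LIM proteins bind LATS kinases at junctions under tension and restrain them. Amotl2 and Ajuba are also widely used as YAP target genes, so members of both families can stand upstream and downstream of YAP.

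Levels are given in FPKM, fragment numbers that the authors scaled by transcript length and library size, which allows a comparison between genes. The level of a gene is the sum over its transcripts. Genes whose level averaged 0.5 FPKM or more, 14080 in all, were tested with limma on log2(FPKM + 0.5), 2-sided, with Benjamini-Hochberg adjustment over all of them and a threshold of 0.05, and all 6 members were among them. Nf2 stood at 17.5, 15.6 and 18.1 FPKM in cKO 1 to 3 and at 16.7, 16.6 and 14.1 FPKM in control 1 to 3, a sum over transcripts that does not check the deletion of part of the gene. The 8 chondrocyte markers examined were present in all libraries and all 8 were called lower in cKO cells, beside 4.57% of all tested genes. The RNA of bulk cultures does not tell fewer cells of a type from less RNA per cell.

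The 250 bases before the RefSeq start sites (GRCm38.p6, the assembly of mm10) were searched, with the 50 bases after them, for GGAATG or its reverse complement CATTCC, the core that TEAD factors, the DNA-binding partners of YAP, recognise. They are shown because Ajuba and Wtip held several matches, while Amotl2 held 1. Capitals mark the matches, and each line runs 5′ to 3′ on the strand of the gene. Ajuba lies at chr14:54577662-54577911 (minus strand), Wtip at chr7:34133269-34133518 (minus strand) and the Amotl2 stretch at chr9:102717727-102717756 (plus strand).
Ajuba: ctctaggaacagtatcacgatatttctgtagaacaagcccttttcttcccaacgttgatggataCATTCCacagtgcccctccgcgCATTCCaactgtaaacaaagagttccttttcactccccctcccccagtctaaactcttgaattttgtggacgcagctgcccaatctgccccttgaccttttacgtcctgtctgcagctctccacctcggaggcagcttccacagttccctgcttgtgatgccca
Wtip: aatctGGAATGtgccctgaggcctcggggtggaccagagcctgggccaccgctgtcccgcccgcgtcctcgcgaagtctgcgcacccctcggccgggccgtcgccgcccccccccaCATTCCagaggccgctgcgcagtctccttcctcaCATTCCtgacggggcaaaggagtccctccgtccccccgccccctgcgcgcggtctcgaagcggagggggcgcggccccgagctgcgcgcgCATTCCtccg
Amotl2: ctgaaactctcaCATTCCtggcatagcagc

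Ajuba held 2 matches, which begin at positions -186 and -164 from the start site, and Wtip held 4, at -245, -134, -100 and -10. The Amotl2 match began at -65 from the RefSeq start and lies inside the first exon of its main Ensembl transcript. The windows of Amot and Amotl1 held no match, and Limd1 was not matched in the table. The Amot window surrounds only the start at 145487639, that of its transcript ENSMUST00000112836. The other main coding transcript of Amot, ENSMUST00000112835, starts at 145505144, and the bases before that start were not searched. Of 32851 windows of that length, 14.7% held at least 1 match, 1.36% at least 2 and 0.0183% (6 windows) at least 4. The AP-1 motif TGANTCA was in none of the 5 windows and in 7.81% of all windows. A match is a description of the letters, not a bound site, and binding was not measured.

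Amot, Amotl2 and Ajuba rose in cKO cells by close to the same factor, 1.42 to 1.45 by the fit, while no change of Amotl1, Limd1 or Wtip passed the test. These 3 of 6 genes stand beside 7.6% of all tested genes called higher, and none of the 6 was called lower, beside 4.57%. In 4 of the 6 genes the 3 cKO libraries lay above the 3 control libraries, as was so for 22.8% of tested genes (35.1% in either direction). The members were proposed with results of these data known, so neither count is independent support. Both counts are for sums over all transcripts. Over protein-coding transcripts alone the fitted folds were 1.44 for Amot, 1.07 for Amotl2 and 1.51 for Ajuba. Amotl2 then lost its call (limma adjusted p = 0.723), and 7.16% of all genes summed in this way were called higher.

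**Figure D1:**
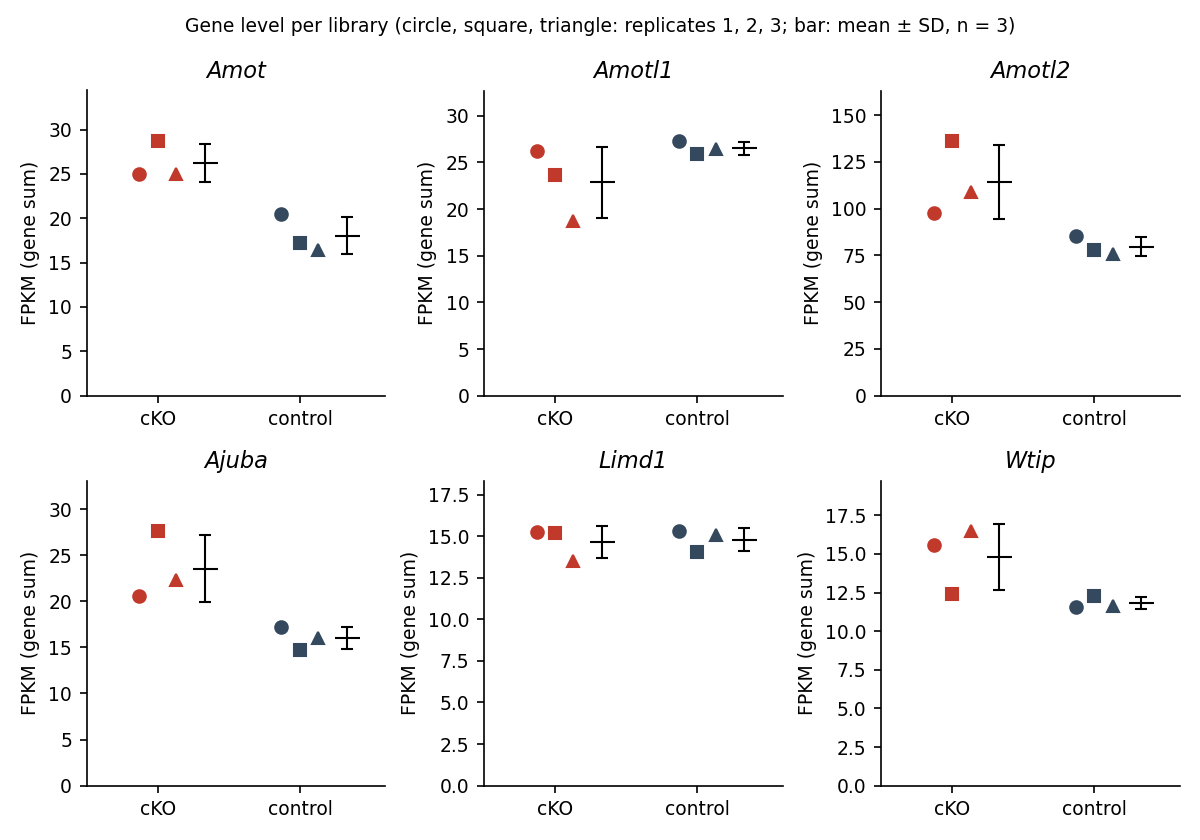
Gene level in FPKM (y axis, from 0) of the 6 genes in the 3 cKO and 3 control libraries, with symbols for replicates 1 to 3 and bars for mean ± SD. The cKO libraries lie above the control libraries for Amot, Amotl2, Ajuba and Wtip, and overlap them for Amotl1 and Limd1.

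Amot (ENSMUSG00000041688, X chromosome, 145446425 to 145505181, minus strand) encodes angiomotin, the founding member, first found as a protein that binds angiostatin. It stood at 25.02, 28.7 and 25.004 FPKM in cKO 1 to 3, against 20.4, 17.2 and 16.5 FPKM in control 1 to 3. The groups were apart, with the lowest cKO library above the highest control library. The means were 26.2 ± 2.11 FPKM in cKO and 18.04 ± 2.11 FPKM in control (SD, n = 3 each), and the log2 change was 0.53 (SE 0.097, limma adjusted p = 0.0128). The fitted fold was 1.44 with a 95% interval of 1.24 to 1.69. Without control 2 the log2 change was 0.50 and the call was lost (limma adjusted p = 0.0611). Amot lies on the X chromosome, and libraries of each group differed in Xist, the RNA that coats the inactive X, which stood at 51.4, 41.6 and 0.0288 FPKM in cKO 1 to 3 and at 51.1, 0.525 and 53.9 FPKM in control 1 to 3. With the Xist level as a covariate the log2 change of Amot was 0.54 (limma adjusted p = 0.0218), and among the 2 cKO and 2 control libraries with high Xist it was 0.53 (limma adjusted p = 0.116).

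Amotl2 (ENSMUSG00000032531, chromosome 9, 102716672 to 102733418, plus strand), an angiomotin that couples actin to cadherins, had the highest level of the 6 and lay at percentile 95.6 of all tested genes by mean level. It stood at 97.7, 136 and 109 FPKM in cKO 1 to 3, against 85.5, 77.9 and 75.8 FPKM in control 1 to 3. The groups were apart, and cKO 2 was the highest. The means were 114 ± 19.7 FPKM in cKO and 79.7 ± 5.12 FPKM in control (SD, n = 3 each). The log2 change was 0.50 (SE 0.12, limma adjusted p = 0.0291), a fitted fold of 1.42 with a 95% interval of 1.18 to 1.71. The call was lost when any 1 of the control libraries or cKO 3 was left out (limma adjusted p between 0.0610 and 0.107) and, as shown with the transcripts, when protein-coding transcripts alone were summed. With the replicate number as a block the limma adjusted p was 0.0551.

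Amotl1 (ENSMUSG00000013076, chromosome 9, 14541966 to 14643529, minus strand), the third relative and a junction protein like the others, stood at 26.2, 23.6 and 18.7 FPKM in cKO 1 to 3, against 27.3, 25.9 and 26.5 FPKM in control 1 to 3. The groups overlapped through cKO 1. The log2 change was -0.22 (SE 0.11, limma adjusted p = 0.231), with a 95% interval of -0.48 to 0.036 that does not reach the change of Amot. Without cKO 3, the lowest library, the log2 change was -0.091.

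Ajuba (ENSMUSG00000022178, chromosome 14, 54567472 to 54577558, minus strand) encodes a LIM domain scaffold that restrains LATS kinases and also activates Aurora A kinase. It stood at 20.6, 27.6 and 22.3 FPKM in cKO 1 to 3, against 17.2, 14.7 and 16.1 FPKM in control 1 to 3. Every cKO library lay above every control library, and cKO 2 was again the highest. The means were 23.5 ± 3.63 FPKM in cKO and 16.0045 ± 1.24 FPKM in control (SD, n = 3 each). The log2 change was 0.53 (SE 0.11, limma adjusted p = 0.0215), a fitted fold of 1.45 with a 95% interval of 1.21 to 1.73. The call was lost without control 2 or control 3 (limma adjusted p = 0.0894 and 0.0571) and with the replicate number as a block (limma adjusted p = 0.0575).

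Limd1 (ENSMUSG00000025239, chromosome 9, 123478706 to 123521552, plus strand), a LATS-binding relative that also scaffolds the degradation of HIF-alpha factors, stood at 15.2, 15.2 and 13.5 FPKM in cKO 1 to 3, against 15.3, 14.0 and 15.1 FPKM in control 1 to 3. The groups overlapped throughout. The log2 change was -0.016 (SE 0.075, limma adjusted p = 0.914), and its 95% interval of -0.19 to 0.16 does not reach the change of Ajuba.

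Wtip (ENSMUSG00000036459, chromosome 7, 34109543 to 34133268, minus strand), named for binding the Wilms tumour protein WT1, stood at 15.6, 12.4 and 16.5 FPKM in cKO 1 to 3, against 11.5, 12.2 and 11.6 FPKM in control 1 to 3. The groups were apart, but cKO 2 exceeded control 2 by little. The log2 change was 0.31 (SE 0.11), which did not pass over all genes (limma adjusted p = 0.0977). Without cKO 2 it was 0.43 and passed (limma adjusted p = 0.0163). Wtip was thus lowest in the cKO library in which Amot, Amotl2 and Ajuba were highest.

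In order of mean level, the cKO libraries had Amotl2, Amot, Ajuba, Amotl1, Wtip and Limd1, and the control libraries had Amotl2, Amotl1, Amot, Ajuba, Limd1 and Wtip. Amotl2 stood apart from all others in both groups. In cKO the ranges of Amot, Ajuba and Amotl1 overlapped, as did those of Wtip and Limd1. In control Amotl1 was apart from Amot, Amot overlapped Ajuba, Ajuba overlapped Limd1, and Limd1 was apart from Wtip. Summed over the family, angiomotin RNA stood at 149, 188 and 153 FPKM in cKO 1 to 3 and at 133, 121 and 119 FPKM in control 1 to 3. Ajuba LIM RNA summed to 51.4, 55.2 and 52.3 FPKM in cKO 1 to 3 and to 44.0, 41.0 and 42.7 FPKM in control 1 to 3. Amotl1 made up 14.1 ± 2.99% of angiomotin RNA in cKO and 21.4 ± 0.920% in control, and Limd1 made up 27.7 ± 1.88% of Ajuba LIM RNA in cKO and 34.7 ± 0.516% in control (SD, n = 3 each).

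**Figure D2:**
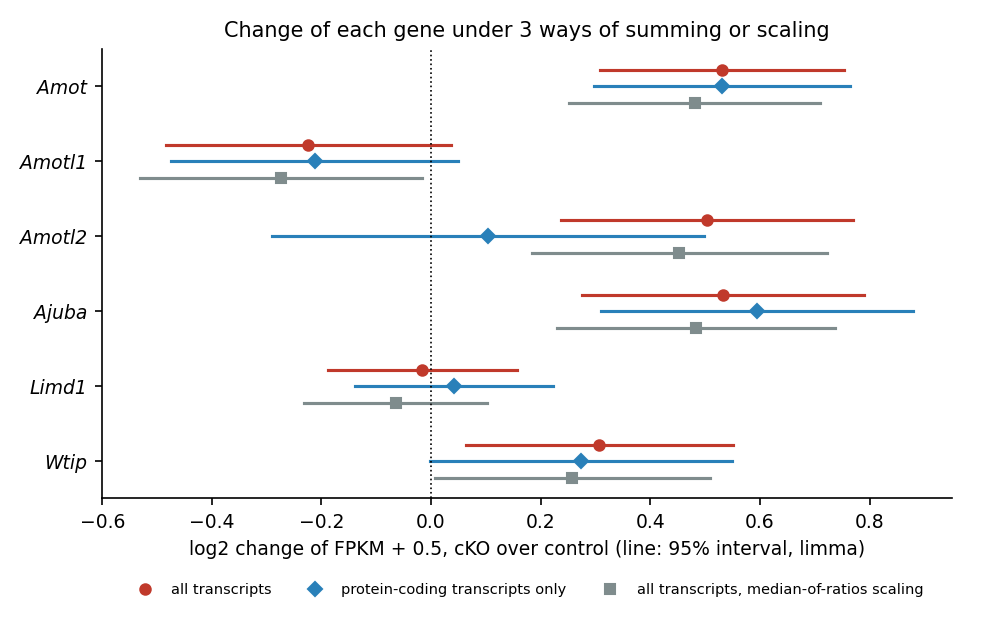
Log2 change of each gene, cKO over control (x axis), with 95% intervals from limma, for all transcripts summed, for protein-coding transcripts alone and for median-of-ratios scaling. Amot and Ajuba lie to the right of 0 in all 3, and Amotl2 moves from 0.50 to 0.10 when protein-coding transcripts alone are summed.

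Whether relatives changed unlike each other was tested on their ratio within each library, in 6 pairs, by an exact permutation test over samples. With 3 against 3 libraries its smallest 2-sided p is 0.1, so no pair could pass. The ratio of Amot to Amotl1 was 0.955, 1.21 and 1.33 in cKO 1 to 3, against 0.750, 0.666 and 0.622 in control 1 to 3, so the 2 genes changed places in order in 2 of 3 cKO libraries (exact permutation p = 0.1, adjusted 0.2). Amotl2 over Amotl1 was 3.73, 5.75 and 5.81 in cKO 1 to 3, against 3.14, 3.01 and 2.86 in control 1 to 3 (exact permutation p = 0.1, adjusted 0.2). Ajuba over Limd1 was 1.35, 1.82 and 1.65 in cKO 1 to 3, against 1.13, 1.05 and 1.07 in control 1 to 3 (exact permutation p = 0.1, adjusted 0.2). These 3 ratios did not overlap between groups. Over protein-coding transcripts alone the change in the log2 ratio of Amotl2 to Amotl1 was 0.32 (exact permutation p = 0.9), against 0.73 over all transcripts. Amotl2 over Amot was 4.33 in cKO and 4.44 in control as a mean of 3 libraries, with overlapping groups (change in the log2 ratio -0.037, exact permutation p = 0.7). Over protein-coding transcripts alone that change was -0.44 (exact permutation p = 0.2). Ajuba over Wtip (exact permutation p = 0.7) and Wtip over Limd1 (exact permutation p = 0.2) also overlapped.

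**Figure D3:**
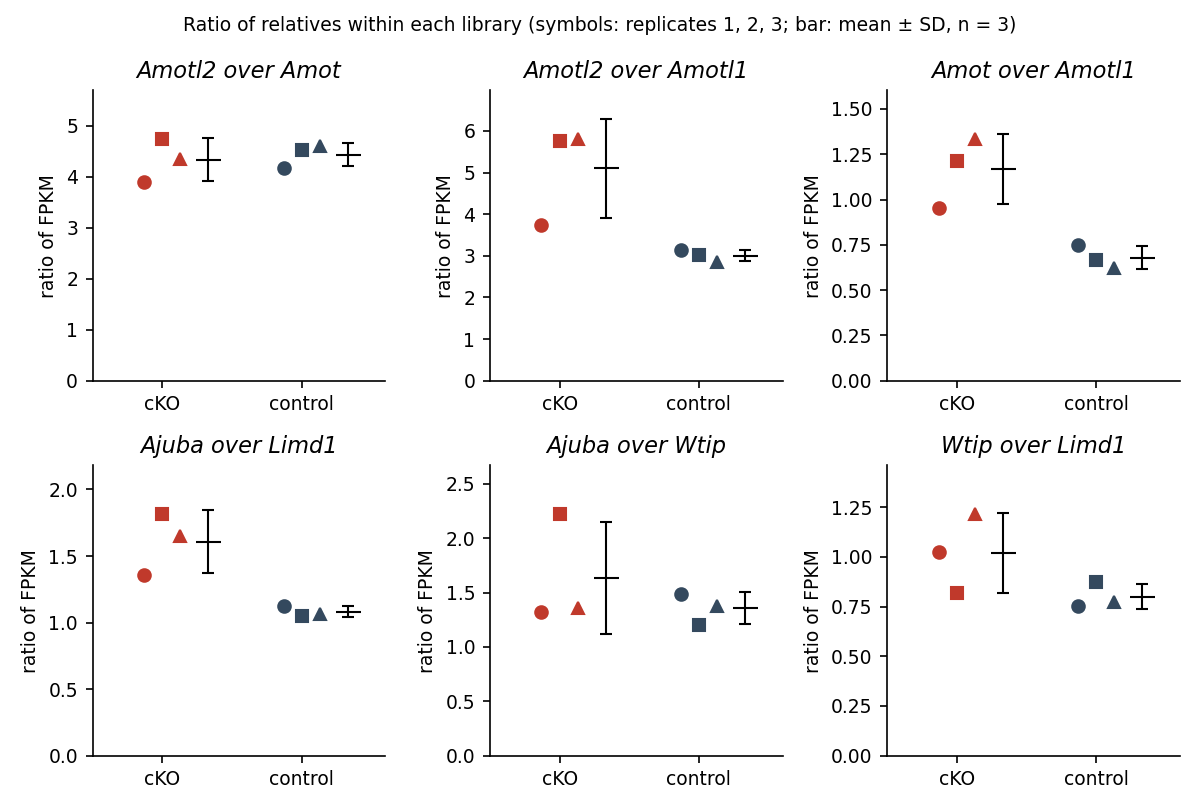
Ratio of the FPKM of 2 relatives within each library (y axis, from 0) for 6 pairs, with symbols for replicates 1 to 3 and bars for mean ± SD. Amotl2 over Amotl1, Amot over Amotl1 and Ajuba over Limd1 are higher in all 3 cKO libraries than in any control library, and the other 3 pairs overlap.

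The 32 transcripts had the same start and end in the GENCODE M21 annotation, and the 19 with a mean of at least 0.5 FPKM were tested with limma among 27761 transcripts. None of the 19 passed, beside 0.609% of all tested transcripts called (0.187% higher and 0.421% lower). An unadjusted p under 0.05 was reached by 2, and the share of all tested transcripts at that level was not counted. Those 2 were the main transcript of Ajuba and the short retained-intron transcript ENSMUST00000136934 of Amotl2. The latter stood low, at 1.59, 1.78 and 1.37 FPKM in cKO 1 to 3, against 0.750, 1.15 and 0.621 FPKM in control 1 to 3 (limma adjusted p = 0.250). The groups were apart for 4 of the 19, beside 22.6% of all tested transcripts, and 3 of these were higher in cKO, beside 13.3%. In the authors' deposited table none of the 32 is marked significant, a mark that needs a change of at least 2-fold there and that 2.19% of its transcripts carry. There 1 of the 32 has a q-value under 0.05, beside 3.81% of all its transcripts.

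That transcript is ENSMUST00000054487 of Ajuba, which codes for 547 residues. It stood at 19.6, 25.7 and 20.5 FPKM in cKO 1 to 3, against 15.8, 12.7 and 14.4 FPKM in control 1 to 3, with separate groups. Its log2 change was 0.59 (SE 0.14, limma adjusted p = 0.140). For this transcript a fold of 1.53 with q = 0.000372 stands in the authors' deposited table. It made up 93.3% of Ajuba RNA in cKO and 89.2% in control as a mean of 3 libraries (exact permutation p = 0.1). The rest was the retained-intron transcript ENSMUST00000226463, at 1.01, 1.90 and 1.83 FPKM in cKO 1 to 3 and 1.43, 2.02 and 1.65 FPKM in control 1 to 3. The rise of Ajuba therefore stood in its coding transcript. That transcript is the only protein-coding one of Ajuba, so its protein-coding sum holds the same values and the same log2 change of 0.59. Fitted among 11676 gene sums rather than 27761 transcripts, these values had a limma adjusted p of 0.0254, which is not a second result.

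Amotl2 was composed otherwise. Its 11 transcripts are led by ENSMUST00000035121, which has 10 exons and codes for 772 residues. That transcript stood at 51.4, 37.4 and 84.2 FPKM in cKO 1 to 3, against 55.4, 58.6 and 55.0 FPKM in control 1 to 3. It was below all control libraries in cKO 1 and cKO 2 and above them all in cKO 3, and its log2 change was -0.046 (SE 0.28, limma adjusted p = 0.961). The retained-intron transcript ENSMUST00000138224 stood at 35.5, 46.3 and 19.6 FPKM in cKO 1 to 3, against 25.4, 14.0 and 15.1 FPKM in control 1 to 3. It was high in cKO 1 and cKO 2, while cKO 3 lay within the range of the control libraries, and the change did not pass (log2 change 0.84, SE 0.37, limma adjusted p = 0.375). As background, the 4387 tested retained-intron transcripts had a median log2 change of -0.089 and 0.0912% of them were called higher.

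The first exon of ENSMUST00000138224 runs from 102722534 to 102723863 on chromosome 9, and 1035 of its 1330 bases lie inside an intron of the coding transcript. Its other 7 exons have the same start and end as in the coding transcript, so fragments from them carry no information on which of the 2 they came from. The transcript ENSMUST00000142011, annotated as a target of nonsense-mediated decay, the pathway that degrades RNA with an early stop codon, stood at 3.14, 35.2 and 2.37 FPKM in cKO 1 to 3 and at 1.38, 2.68 and 1.35 FPKM in control 1 to 3. The cKO 2 library stood far above the other 5, and the change did not pass limma (adjusted p = 0.491). It differs from the coding transcript by 1 added exon of 99 bases at chr9:102730487-102730585 (plus strand), which is shown because it alone separates the pair. Capitals mark its in-frame stop codon.
Amotl2 added exon: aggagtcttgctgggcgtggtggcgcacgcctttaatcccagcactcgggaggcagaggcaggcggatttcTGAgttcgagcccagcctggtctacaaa

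The stop codon begins at base 72 of this exon. A stretch of 30 bases of the exon occurs, on either strand, in 1370 transcripts of 1118 other genes in GENCODE M21, so it is repeated sequence and fragments inside it need not come from Amotl2. Most of its letters are those of the B1 element, an abundant short interspersed repeat of the mouse. No source used here says how the authors' program assigned such fragments.

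The 7 protein-coding transcripts of Amotl2 together stood at 56.2, 52.0 and 84.9 FPKM in cKO 1 to 3, against 57.6, 59.6 and 58.1 FPKM in control 1 to 3. Their log2 change was 0.10 (SE 0.17, limma adjusted p = 0.723), with a 95% interval of -0.29 to 0.50, beside 7.16% of genes called higher when each gene was summed in this way. The other 4 transcripts together stood at 41.5, 84.1 and 23.9 FPKM in cKO 1 to 3, against 27.9, 18.3 and 17.7 FPKM in control 1 to 3 (exact permutation p = 0.2). The sum over all 11 separated the groups, while neither part did. Protein-coding transcripts held 57.6, 38.2 and 78.0% of Amotl2 RNA in cKO 1 to 3 and 67.4, 76.6 and 76.6% in control 1 to 3. In the 5 other genes the protein-coding share was at least 86.3% in every library.

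**Figure D4:**
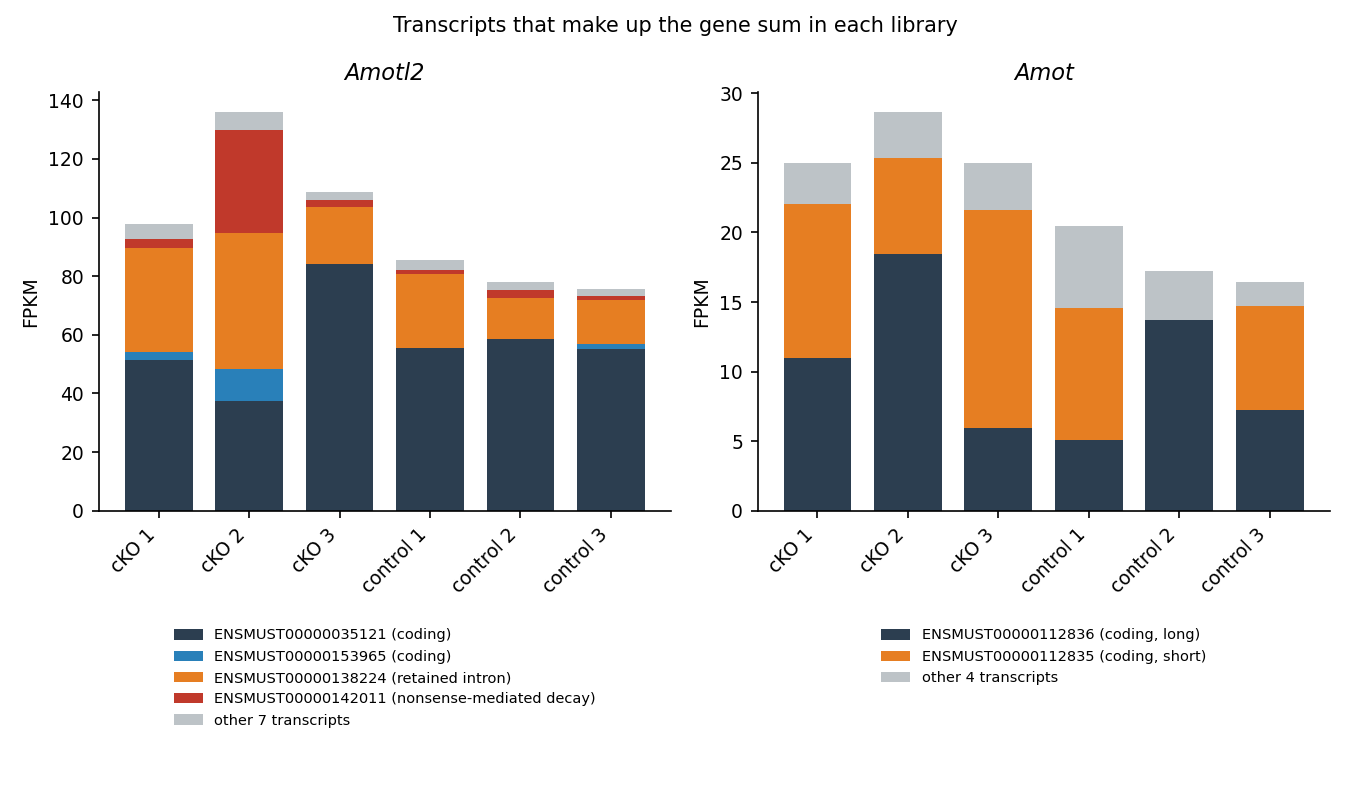
Stacked FPKM of the transcripts of Amotl2 (left) and Amot (right) in each library, cKO 1 to 3 before control 1 to 3. For Amotl2 the authors' values assign the added signal to transcripts not annotated as protein coding in cKO 1 and cKO 2 and to the main coding transcript in cKO 3. For Amot the values of the long and short coding transcripts trade places from library to library while their sum separates the groups. How the authors' program split fragments between the transcripts of a gene is not known.

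Amot had 2 main coding transcripts with complete reading frames. ENSMUST00000112836 codes for 1126 residues and ENSMUST00000112835, which starts further upstream but lacks the exon with the amino-terminal extension, for 737. In human cells the extension of the long form carries the motifs that bind YAP, and the short form lacks it. The long transcript stood at 10.9, 18.4 and 5.98 FPKM in cKO 1 to 3, against 5.10, 13.7 and 7.23 FPKM in control 1 to 3. The short transcript stood at 11.1, 6.93 and 15.6 FPKM in cKO 1 to 3, against 9.50, 0.0332 and 7.52 FPKM in control 1 to 3. Neither separated the groups or passed (limma adjusted p = 0.759 for the long and 0.564 for the short), and replicates of 1 group differed more than the groups did.

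The 4 Amot transcripts with the extension exon, partial models included, together stood at 13.8, 21.7 and 9.36 FPKM in cKO 1 to 3, against 10.9, 17.2 and 8.88 FPKM in control 1 to 3 (exact permutation p = 0.6). Their share of Amot RNA lay between 37.4 and 75.7% in cKO and between 53.5 and 99.8% in control. The rise of the gene was thus not assigned to either form, although protein-coding transcripts alone gave the same log2 change of 0.53 (limma adjusted p = 0.0197).

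The other 3 genes each had 1 leading transcript. ENSMUST00000013220 of Amotl1, with 968 residues, stood at 25.1, 23.2 and 18.5 FPKM in cKO 1 to 3, against 25.9, 25.3 and 25.8 FPKM in control 1 to 3, so that all cKO libraries lay below the control libraries without passing (log2 change -0.21, limma adjusted p = 0.482). ENSMUST00000026269 of Limd1, with 668 residues, stood at 14.9, 14.8 and 13.1 FPKM in cKO 1 to 3 and at 14.0, 13.1 and 14.4 FPKM in control 1 to 3. Its share of Limd1 RNA was 97.3% in cKO and 93.4% in control (exact permutation p = 0.1). ENSMUST00000038537 of Wtip, with 398 residues, stood at 14.2, 10.9 and 15.0 FPKM in cKO 1 to 3 and at 10.6, 11.3 and 10.7 FPKM in control 1 to 3, which overlapped through cKO 2. The Wtip groups were apart only once its other transcripts were added, which summed to 1.43, 1.45 and 1.47 FPKM in cKO 1 to 3 and 0.929, 0.922 and 0.915 FPKM in control 1 to 3.

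The closest relatives of the Ajuba family outside it, the zyxin-type LIM proteins of focal adhesions and stress fibres, are Zyx, Lpp, Trip6 and Fblim1. None of these 4 passed limma, none had an unadjusted p under 0.05, and their log2 changes lay between 0.050 and 0.12. Zyx stood at 46.6, 49.2 and 50.5 FPKM in cKO 1 to 3 and at 45.1, 44.0 and 47.5 FPKM in control 1 to 3. Trip6, which also binds LATS kinases, stood at 24.1, 26.1 and 24.3 FPKM in cKO 1 to 3 and at 22.5, 21.7 and 24.4 FPKM in control 1 to 3. Lpp, the lipoma preferred partner, had a log2 change of 0.055 with a 95% interval of -0.24 to 0.34, and Fblim1, which binds filamin, one of 0.050 with an interval of -0.52 to 0.62.

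Of 20 tested partners and turnover factors of angiomotins, 1 fell, none rose by limma and 19 did not pass, beside 4.57% of all tested genes called lower and 7.6% called higher. At an unadjusted p under 0.05, 2 were higher and 1 lower by limma. Among all 14080 tested genes, Wtip (limma unadjusted p = 0.0195) had rank 2816 by p and Amotl1 (limma unadjusted p = 0.0822) rank 5005. The number of all tested genes with an unadjusted p under 0.05, in either direction, thus lies between these ranks. The median log2 change was 0.054, beside 0.051 over all tested genes. The gene that fell was Wwp2, a ubiquitin ligase related to those that mark angiomotins, which is known to be abundant in cartilage. It stood at 50.1, 51.3 and 49.2 FPKM in cKO 1 to 3, against 103, 112 and 110 FPKM in control 1 to 3, a ratio of means of 0.464 with no overlap (log2 change -1.10, SE 0.058, limma adjusted p = 5.74e-05). Its change went with the fall of all 8 chondrocyte markers, whose summed level lay between 2305 and 2829 FPKM in cKO and between 4796 and 5879 FPKM in control, and the part of cell composition in it was not tested.

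Of 21 tested partners of Ajuba LIM proteins, 3 rose, 1 fell and 17 did not pass, beside 7.6% of all tested genes called higher and 4.57% called lower. The median log2 change was 0.13, beside 0.051 over all tested genes. At an unadjusted p under 0.05, 7 were higher and 2 lower by limma. By the ranks of Wtip and Amotl1, between 2816 and 5005 of all 14080 tested genes were at that level in either direction. Aurka, the mitotic kinase that Ajuba activates, stood at 39.98, 39.94 and 43.1 FPKM in cKO 1 to 3, against 27.6, 26.7 and 28.6 FPKM in control 1 to 3 (log2 change 0.56, SE 0.062, limma adjusted p = 0.00176). Grb2, an adaptor that binds Ajuba, rose with a log2 change of 0.31 (limma adjusted p = 0.0259). Prmt5, an arginine methyltransferase recruited by Ajuba to repressed genes, had one of 0.27 (limma adjusted p = 0.0276). Snai2, a repressor of the SNAIL family for which Ajuba LIM proteins act as corepressors, fell to 14.8 ± 1.79 FPKM in cKO, against 21.9 ± 0.955 FPKM in control (SD, n = 3 each; log2 change -0.55, limma adjusted p = 0.00960). The call of Grb2 was lost in 7 of 17 alternatives, with limma adjusted p up to 0.176 among the 4 libraries with high Xist and 0.103 without control 2, and also without cKO 1, cKO 3 or control 1. The call of Prmt5 was lost in 8 of 17, with limma adjusted p up to 0.167 among the 4 libraries with high Xist and 0.112 without control 2, and also without control 1 or any 1 cKO library. Without control 2 that of Snai2 was 0.0501.

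Of 20 Hippo pathway genes, from Nf2 and the kinases to YAP, TAZ, TEAD factors and Vgll4, 1 rose, 1 fell and 18 did not pass. This is near the 12.2% of all tested genes called in either direction, with a median log2 change of 0.063 beside 0.051 over all genes. At an unadjusted p under 0.05, 7 were higher and 1 lower by limma. By the ranks of Wtip and Amotl1, between 2816 and 5005 of all 14080 tested genes were at that level in either direction. Lats2, Wwc1 and Tead1 of this list are also in the list of YAP and TAZ targets, and Lats2 is also among the Ajuba LIM partners. Stk38l, an NDR kinase, fell to 9.42 ± 0.857 FPKM in cKO, against 14.98 ± 0.544 FPKM in control (SD, n = 3 each; limma adjusted p = 0.00313). Vgll4, which competes with YAP for TEAD factors, rose with a log2 change of 0.25 (limma adjusted p = 0.0469), a call lost in 12 of 17 alternatives and without any single library but cKO 2 (limma adjusted p 0.0954 to 0.129). Over protein-coding transcripts alone the log2 change of Vgll4 was 0.040 (limma adjusted p = 0.790). Of 24 YAP and TAZ targets other than Amotl2 and Ajuba, 7 rose, 1 fell and 16 did not pass, beside 7.6% of all tested genes called higher and 4.57% called lower. The median log2 change was 0.33, beside 0.051 over all tested genes. Cryab, a small heat shock protein, stood at 77.3 ± 1.38 FPKM in cKO and 34.0 ± 5.16 FPKM in control, and Ankrd1, a muscle ankyrin repeat protein, at 7.84 ± 2.52 FPKM in cKO and 2.95 ± 0.744 FPKM in control (SD, n = 3 each; limma adjusted p = 0.000431 and 0.0127). The call of Ankrd1 was lost without control 2 (limma adjusted p = 0.0579). Asap1, a GTPase-activating protein for ARF proteins, stood at 27.6, 31.2 and 26.8 FPKM in cKO 1 to 3, against 18.4, 17.7 and 18.4 FPKM in control 1 to 3 (limma adjusted p = 0.00213). Birc5, the mitotic protein survivin, stood at 88.7, 76.8 and 89.6 FPKM in cKO 1 to 3, against 60.3, 63.3 and 62.3 FPKM in control 1 to 3 (limma adjusted p = 0.00871). Ccn1 averaged 278 FPKM in cKO and 191 FPKM in control (limma adjusted p = 0.0337). Axl averaged 92.8 FPKM in cKO and 71.6 FPKM in control (limma adjusted p = 0.0416). Whether the calls of Ccn1 and Axl hold under the alternatives was not examined. Among the targets that rose, Ankrd1, Asap1, Ccn1 and Axl were highest in cKO 2, as were Amot, Amotl2 and Ajuba. Birc5 and Tgfb2 were lowest there among the cKO libraries, and Cryab was highest in cKO 3. Tgfb2, a TGF-beta ligand, stood at 34.0, 25.8 and 36.1 FPKM in cKO 1 to 3, against 20.4, 17.0 and 19.5 FPKM in control 1 to 3 (limma adjusted p = 0.0117, and 0.0546 without control 2). Ccn2, a secreted matricellular protein, fell to 252 ± 23.5 FPKM in cKO, against 362 ± 17.4 FPKM in control (limma adjusted p = 0.00747).

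**Figure D5:**
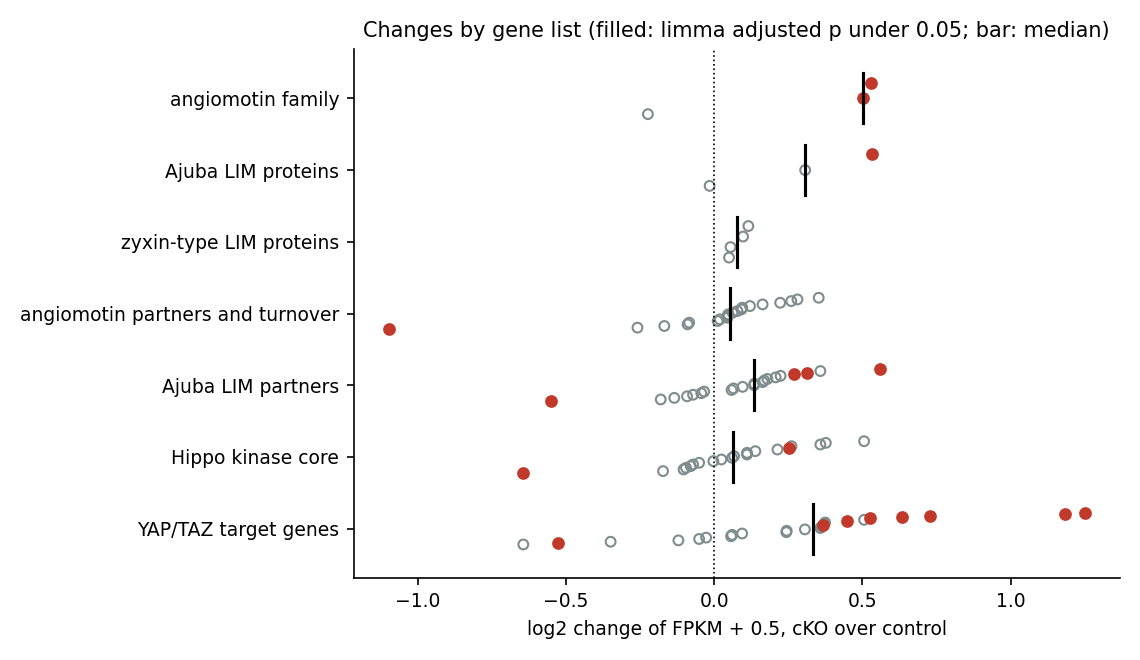
Log2 change, cKO over control (x axis), of each tested gene in 7 lists, with filled points for a limma adjusted p under 0.05 and bars for the list median. Amot, Amotl2 and Ajuba lie near 0.5, the 4 zyxin-type genes lie between 0.050 and 0.12, and the YAP and TAZ targets other than Amotl2 and Ajuba have a median of 0.33.

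Over the 6 libraries, the tested protein-coding genes averaging 1 FPKM or more that followed each member most closely were found by Pearson's r of log2(FPKM + 0.5). For Amot these were Pcgf3, Ccm2 and Xrn2 (r 0.992 to 0.997), for Amotl2 they were Cd55, Ptcd1 and Actn1 (0.995 to 0.997), and for Ajuba they were Smad9, Erlin2 and Btbd19 (0.996 to 0.998). Amotl1 was followed by Slc38a1, Capn15 and Acaca, Limd1 by Ddx3x, Mrs2 and Pcnt, and Wtip by Lamtor3, Dnase1l1 and Nt5dc2. Among the members, Amotl2 and Ajuba had r = 0.985, Amot and Ajuba 0.953, and Amot and Amotl2 0.9497, while Wtip had 0.401 with Amotl2. With 6 points that share the 2 groups and 11107 genes compared, values this high are a description of likeness, with 177 genes at 0.95 or more for Amotl2 and 290 for Ajuba.

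Markers of other cells were examined because angiomotins are also known from endothelium and epithelium. Of 8 endothelial markers 6 were in the table and none reached the level for testing, and they summed to 0.433 to 0.895 FPKM in cKO and 0.315 to 0.467 FPKM in control, with Cdh5 at 0.0199 FPKM at most. Of 8 epithelial and mesothelial markers 4 were tested, of which 2 rose and 1 fell, beside 7.6% of all tested genes called higher and 4.57% called lower. The 8 summed to 82.4 to 171 FPKM in cKO and 38.9 to 52.1 FPKM in control. Msln, mesothelin, stood at 57.0, 120 and 51.8 FPKM in cKO 1 to 3, against 27.9, 26.3 and 32.7 FPKM in control 1 to 3, and Krt19, a simple keratin, at 21.4, 44.0 and 21.96 FPKM in cKO 1 to 3, against 8.65, 5.79 and 10.2 FPKM in control 1 to 3. Both were highest in cKO 2, as were Amot, Amotl2 and Ajuba. Krt8 fell at a low level, with 0.289, 0.227 and 0.462 FPKM in cKO 1 to 3, against 0.994, 0.926 and 2.05 FPKM in control 1 to 3. Krt18 stood at 5.86, 6.30 and 7.78 FPKM in cKO 1 to 3, against 5.36, 5.19 and 5.92 FPKM in control 1 to 3. Its log2 change of 0.25 did not pass (limma adjusted p = 0.194). Epcam, Cdh1, Upk3b and Wt1 stayed under the level for testing, Wt1 at 0 in all cKO libraries. Epcam, an epithelial adhesion protein, stood at 0.0672, 0.0858 and 0.0355 FPKM in cKO 1 to 3, against 0.568, 0.457 and 0.862 FPKM in control 1 to 3, and Cdh1, E-cadherin, at 0.428, 0.443 and 0.319 FPKM in cKO 1 to 3, against 0.143, 0.194 and 0.303 FPKM in control 1 to 3. These low levels did not overlap between groups, Epcam being lower and Cdh1 higher in cKO. Without cKO 2 the log2 changes were 0.47 for Amot, 0.37 for Amotl2 and 0.41 for Ajuba, and all 3 passed (limma adjusted p = 0.0283, 0.0297 and 0.0281). Macrophage markers summed to 7.22 to 10.3 FPKM in cKO and 5.75 to 16.4 FPKM in control, with none of 3 tested past limma or an unadjusted p under 0.05. Of 9 tested fibroblast, perichondrium and smooth muscle markers 1 rose, 3 fell and 5 did not pass, beside the same shares of all tested genes. Tagln averaged 122 FPKM in cKO and 78.2 FPKM in control. Those that fell were Dcn (43.0 against 117 FPKM), Lum (41.3 against 110 FPKM) and Col3a1 (185 against 302 FPKM), as means of cKO against control. The part of these cell types in the changes of the 6 genes was not tested.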

How the data were processed

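RNA was extracted with Trizol and 1.5 µg of total RNA went into each library, with dUTP incorporated during cDNA synthesis, per the labels' protocols. Build mm10 comes from the submitters' processing notes. No source used here gives the aligner, the quantification program or the test behind the deposited p-values. The deposited table holds FPKM per transcript and library, made by the authors, per the file headers. It also holds the authors' fold (a ratio of mean FPKM in cKO to control), its log2, and a p-value and q-value, per the file headers. FPKM are not counts, and the number of fragments per library is not in the table. A search of low values for the step of 1 fragment put at most 25.7 to 32.2% of them within 0.05 of a whole multiple, where evenly spread values give 10%, so whole reads were not recovered and no counting error is given.

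FPKM were summed per gene symbol and tested by limma (version 3.58.1, in R 4.3.3), letting the variance follow the mean and adding no covariate. Intervals are 95% intervals of that fit. The same fit was made over single transcripts. Ratios and shares had exact permutation tests over samples. The limma script was tested on simulated data. Python 3.11.15 was used with pandas 2.3.3, NumPy 2.4.6 and, for the plots, Matplotlib 3.10.9. Named were the 6 members, the 4 zyxin-type genes, genes past the test in each list (up to 6, smallest p) and the 3 genes most like each member. Ccn1 and Axl, which also passed, were named in addition. Markers were named after their values were seen. The members and lists were chosen with earlier results of these data known. Promoters are from RefSeq (GRCm38.p6), which matched 5 of the 6 symbols, and transcript models and the added exon from GENCODE M21.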

Additional observations from a re-analysis of the deposited data

How the results depend on the processing

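Each of the 6 genes was refitted under 17 alternatives. Amot kept its call in 14, Ajuba in 12 and Amotl2 in 8, all with a positive log2 change. Without a filter on low values the log2 change and limma adjusted p were 0.53 and 0.0578 for Amot, 0.50 and 0.111 for Amotl2 and 0.53 and 0.0840 for Ajuba. Among the Xist-high libraries, chosen after seeing the data, they were 0.53 and 0.116, 0.52 and 0.170, and 0.51 and 0.146 for the same genes. Amotl2 also lost its call with quantile normalization (0.42, 0.0716), with protein-coding transcripts only (0.10, 0.723) and with the replicate block (0.50, 0.0551), and Ajuba with the replicate block (0.53, 0.0575). Deviations of samples of the same number had r of -0.016, -0.056 and -0.046, and those of unlike numbers had r from -0.046 to 0.095. Values this near 0 cannot settle whether the numbers pair the samples. Leaving out 1 library at a time gave log2 changes of 0.47 to 0.62 for Amot, 0.37 to 0.61 for Amotl2, 0.41 to 0.62 for Ajuba, -0.33 to -0.091 for Amotl1, 0.23 to 0.43 for Wtip and -0.052 to 0.039 for Limd1. Limd1 turned positive with protein-coding transcripts only (0.042), a length-weighted sum over transcripts (0.016, added after seeing the data) and the Xist-high libraries (0.0022). With protein-coding transcripts only, the change in the log2 ratio was -0.44 for Amotl2 over Amot and 0.32 for Amotl2 over Amotl1.

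Over all genes 1070 were called higher and 643 lower. Of these counts the higher one was 690 with median-of-ratios scaling and 666 with quantile normalization, each beside 735 lower. The higher and lower counts were 342 and 320 without a filter, 638 and 459 with the replicate block, 58 and 152 in the Xist-high libraries, and 225 to 786 and 316 to 546 with 1 library left out. Over transcripts, 52 higher and 117 lower became 15 and 27 without a filter, 5 and 14 with Xist as a covariate, 0 and 0 with the replicate block, 0 and 0 in the Xist-high libraries, and 13 to 28 and 18 to 40 with 1 library left out. Signs turned for Lpp with quantile normalization (-0.0023), Fblim1 in the Xist-high libraries (-0.042) and ENSMUST00000026269 with quantile normalization (-0.024). With 1 library left out the log2 changes ran from -0.077 to 0.19 for Lpp, -0.17 to 0.27 for Fblim1, -0.22 to 0.12 for ENSMUST00000226463, -0.84 to 0.15 for ENSMUST00000125271, -0.015 to 0.51 for ENSMUST00000143610, -0.64 to 0.073 for ENSMUST00000161171, -0.36 to 0.22 for ENSMUST00000035121 and -0.083 to 0.20 for ENSMUST00000140911. The cause of these changes was not tested. The depth is unknown, so no limit from counting can be given.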
